A study of Mus musculus with 6 samples.

Results

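Imprinted genes that neuroendocrine cells are known to express were followed in the adrenal medulla of mice under cardiac pressure overload. The list held 10 genes, Dlk1, Meg3, Rian, Peg3, Igf2, H19, Cdkn1c, Ndn, Nnat and Plagl1, and their members were all probe sets to which the platform annotation gives only that gene symbol. This gave 37 of the 45101 probe sets, for 9 of the 10 genes. H19 had no probe set with its symbol alone, and 1 probe set that lists it together with another gene was not used.

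The tissue was microdissected from 12 µm cryosections of male C57/Bl6 mice 8 weeks after surgery. Arrays labelled TAC 1 to TAC 3 came from animals with transverse aortic constriction, a narrowing of the aorta that makes the heart pump against a higher pressure, and sham 1 to sham 3 from sham-operated animals. Each array held RNA from the medullae of 1 mouse, so the arrays of a group are separate animals. The dissected medulla is a mixture of cells, and in such bulk RNA fewer cells of a type and less RNA per cell cannot be told apart. The probes read the sum of the maternal and paternal transcripts, so no value here tells which allele was active.

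An imprinted gene is transcribed mainly or only from the chromosome inherited from a given parent, because DNA methylation set in the germ line marks the silent or the active copy. Many imprinted genes act on fetal growth and are turned down after birth, while some stay active in neurons and endocrine cells, the adrenal medulla among them. Imprinted genes often lie in clusters that share a control region. Dlk1 is paternally expressed and is a neighbour of the maternally expressed noncoding RNA genes Meg3 and Rian on chromosome 12, and Igf2 and H19 form a similar pair on chromosome 7.

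Meg3 and Rian encode no protein, and their long transcripts carry microRNAs and, in Rian, small nucleolar RNAs. The sequences of the microRNAs inside them are shown because the arrays read these host transcripts and not the mature microRNAs. RefSeq (GRCm38.p6) places 3 mature microRNAs within Meg3 and 6 within Rian, on the plus strand of chromosome 12 between positions 109544588 and 109618326. The capitals mark the seed, bases 2 to 8, and no seed occurs more than once among them.
mmu-miR-1906: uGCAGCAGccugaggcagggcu
mmu-miR-770-5p: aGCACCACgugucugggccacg
mmu-miR-770-3p: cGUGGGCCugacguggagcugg
mmu-miR-341-5p: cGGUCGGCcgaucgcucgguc
mmu-miR-341-3p: uCGGUCGAucggucggucggu
mmu-miR-1188-5p: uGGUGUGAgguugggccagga
mmu-miR-1188-3p: uCCGAGGCuccccaccacacccugc
mmu-miR-370-5p: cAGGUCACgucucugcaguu
mmu-miR-370-3p: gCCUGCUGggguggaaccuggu

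The promoters of Peg3 and Meg3 are shown because both hold the palindrome TGACGTCA, the binding motif of cAMP response element binding proteins, which act downstream of the nerve signals that drive the medulla. RefSeq windows from 250 bases before to 50 bases after the transcript start were found for 8 of the 10 genes, in 12 windows since some genes have several starts. TGACGTCA, which reads the same on both strands, occurred in 1.79% of all 32851 such windows and in 2 of the 12. A single long form of the binding motif of the zinc finger factor YY1, searched on both strands, was found in none of the 12 and in 0.527% of all windows. Shorter or other forms of the YY1 motif were not searched, so their absence from these windows is not shown. A match describes letters and not a bound site, and no binding was measured here. The Peg3 window is chr7:6730370-6730669 on the minus strand and the Meg3 window chr12:109540746-109541045 on the plus strand, both in GRCm38.p6, with the palindrome in capitals.
Peg3 promoter: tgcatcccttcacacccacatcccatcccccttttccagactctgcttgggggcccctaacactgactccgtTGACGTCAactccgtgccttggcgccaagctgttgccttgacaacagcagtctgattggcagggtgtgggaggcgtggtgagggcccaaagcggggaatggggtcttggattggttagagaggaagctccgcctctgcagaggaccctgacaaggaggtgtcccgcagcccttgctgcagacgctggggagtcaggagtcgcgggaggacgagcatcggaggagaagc
Meg3 promoter: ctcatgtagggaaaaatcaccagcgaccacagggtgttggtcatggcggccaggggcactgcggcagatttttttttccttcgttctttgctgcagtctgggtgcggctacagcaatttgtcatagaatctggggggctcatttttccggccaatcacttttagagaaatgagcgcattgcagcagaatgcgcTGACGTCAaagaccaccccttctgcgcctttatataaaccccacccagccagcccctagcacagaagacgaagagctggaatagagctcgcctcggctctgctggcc

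Levels are log2 intensities of a probe set, and differences are TAC minus sham in log2, each group having n = 3 arrays. The SD gives the scatter of a group's arrays, and the SE is the error of a difference estimated by limma, fitted over all 18188 probe sets that reached log2 4 on at least 3 of the 6 arrays. Values under log2 4 were treated as too low to measure. Of the 37 probe sets of the imprinted genes, 27 passed this filter, and they covered 8 genes. The other 10 lay between 1.66 and 5.50 on single arrays and included the only probe set of Cdkn1c.

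No probe set of an imprinted gene passed the threshold of an adjusted p of 0.05, 0 of 27 in limma with Benjamini-Hochberg adjustment over all tested probe sets, where the share called was 0%. The lowest adjusted p among them was 0.417 and the highest 0.999. At an unadjusted p under 0.05 there were 2 of 27, or 7.41%, where all tested probe sets gave 6.94% (4.65% higher after TAC and 2.29% lower). The groups did not overlap at 4 of 27, or 14.8%, where all tested probe sets gave 13% (9.01% higher after TAC and 4.01% lower). These shares are near the background. When each array was weighted by its own spread (limma arrayWeights), 9 of 27 passed an adjusted p of 0.05. Of all 18188 tested probe sets 6698 did. The weight of TAC 3 was 6.11, against 0.40 for TAC 1 and 0.36 for TAC 2. The weighted TAC group thus rested mostly on TAC 3. With 1 probe set per gene, 5 genes were higher after TAC and 3 lower, with a median difference of 0.21. Over all 10181 tested genes 58.7% were higher after TAC, and the median difference was 0.09. The median of the imprinted genes had no stable sign. It was -0.05 when a gene's tested probe sets were averaged, -0.06 without TAC 2, -0.07 without sham 1, 0.04 with array weights and 0.47 without TAC 1.

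**Figure D1:**
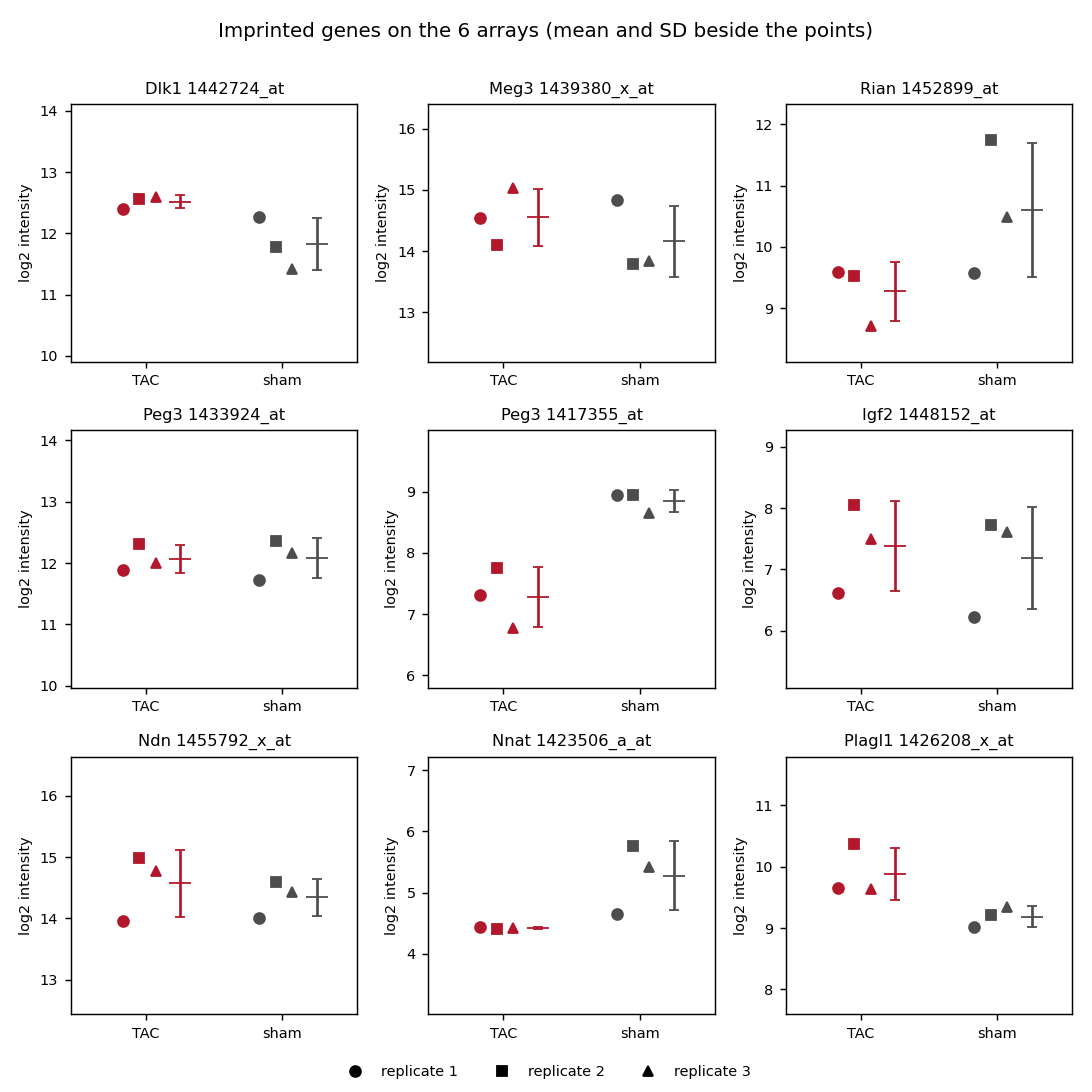
Log2 intensity (vertical axis, each panel spanning the same range) of 9 probe sets of 8 imprinted genes on the TAC and sham arrays, with arrays as points and the mean and SD of the 3 arrays beside them. In the panels of Dlk1 1442724_at, Peg3 1417355_at, Nnat and Plagl1 the points of TAC and sham do not overlap, and in the other panels they do.

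Dlk1 encodes a transmembrane protein related to the ligands of Notch receptors, and chromaffin cells are known to make and release it. Probe set 1442724_at measured 12.39, 12.55 and 12.60 after TAC and 12.26, 11.78 and 11.41 after sham. All TAC arrays lay above all sham arrays, by a gap of 0.13. The means were 12.51 ± 0.11 after TAC and 11.82 ± 0.43 after sham (SD), a difference of 0.69 ± 0.29 SE that did not pass the threshold (limma adjusted p = 0.718). TAC 1 and sham 3, the lowest arrays of their groups here, had the highest mean log2 value of adrenal cortex markers in their groups. That mean was 9.23, 8.10 and 6.65 on the TAC arrays and 7.64, 6.66 and 10.51 on the sham arrays. Without TAC 1 and sham 3 the difference in Dlk1 was 0.55.

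The second Dlk1 probe set, 1449939_s_at, gave another picture. It measured 10.85, 12.45 and 11.72 after TAC against 10.88, 11.98 and 11.55 after sham. The groups overlapped, and TAC 1 and sham 1 were the low arrays of their groups. The difference was 0.20 ± 0.50 SE (limma adjusted p = 0.990), and it was -0.18 without TAC 2 and -0.09 without sham 1.

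Meg3, a maternally expressed noncoding RNA known as a growth suppressor in endocrine tumours, was read by 11 probe sets, all tested. After TAC 6 were higher and 5 lower, from -1.62 to 0.40, and none had groups without overlap. Probe set 1439380_x_at, the one of highest mean among them, measured 14.53, 14.10 and 15.03 after TAC and 14.83, 13.80 and 13.85 after sham. Sham 1 lay inside the TAC range and the other sham arrays below it. The difference was 0.40 ± 0.40 SE (limma adjusted p = 0.972). The suffix x marks probes that may also bind related sequences.

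The largest negative reading of Meg3 came from 1436713_s_at, with 5.29, 6.11 and 7.12 after TAC and 5.41, 9.21 and 8.76 after sham. Sham 1 was within the TAC range, and the other sham arrays were above it. Its difference of -1.62 ± 1.08 SE had an adjusted p of 0.906 in limma, and it was -2.81 without sham 1 and -0.91 without sham 2. Probe set 1428764_at measured 8.51, 5.68 and 6.43 after TAC and 10.25, 7.02 and 7.64 after sham. TAC 1 and sham 1 were the high arrays of their groups here, the reverse of 1436713_s_at, and TAC 1 lay above sham 2 and sham 3. Its difference was -1.43 ± 1.07 SE (limma adjusted p = 0.934), with -0.84 without TAC 2, -0.46 without sham 1 and -2.25 without TAC 1.

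Further Meg3 probe sets had the same order of arrays within each group as 1428764_at. Probe set 1452183_a_at measured 13.03, 11.31 and 12.66 after TAC and 12.78, 11.40 and 11.64 after sham, a difference of 0.39 ± 0.58 SE (limma adjusted p = 0.982). Probe sets 1452905_at and 1426758_s_at differed by 0.05 and 0.02, and their sign turned after quantile normalization and cyclic loess. So Meg3 had no common direction among its probe sets.

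Rian, the maternally expressed host of small nucleolar RNAs next to Meg3, was lower after TAC on average in all 4 of its probe sets, from -1.89 to -1.07, and the groups overlapped in each. Probe set 1452899_at measured 9.58, 9.52 and 8.71 after TAC and 9.57, 11.75 and 10.48 after sham. Sham 1 lay within the TAC range while sham 2 and sham 3 were above it. The difference was -1.33 ± 0.59 SE (limma adjusted p = 0.750) and -0.75 without sham 2.

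The difference of largest size among all member probe sets was that of Rian 1427580_a_at, with 6.24, 3.39 and 4.39 after TAC and 7.71, 5.96 and 6.03 after sham. TAC 2 was under log2 4, and TAC 1 lay above sham 2 and sham 3. The difference was -1.89 ± 0.84 SE (limma adjusted p = 0.747), and -1.25 without TAC 2. The remaining Rian probe sets, 1440001_at and 1428055_at, differed by -1.16 and -1.07, with adjusted p-values of 0.931 and 0.963, and without sham 1 their values were -0.50 and -0.04. Without TAC 2 they were -0.52 and -0.48, and without TAC 1 they were -1.79 and -1.61. The value of 1428055_at was also -1.77 without sham 3.

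**Figure D2:**
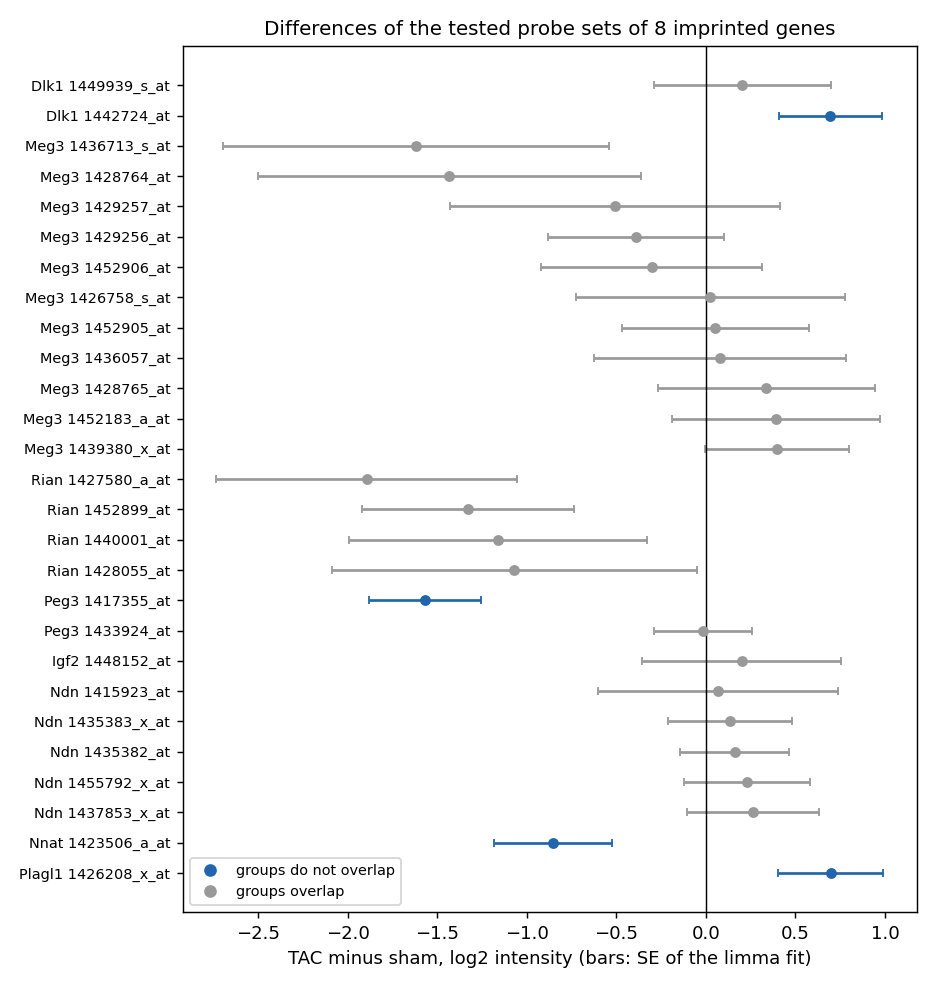
Difference of TAC minus sham in log2 intensity (horizontal axis) for the 27 tested probe sets of 8 imprinted genes, with the SE of the limma fit as bars. The 4 Rian probe sets lie between -1.89 and -1.07, the 11 Meg3 probe sets between -1.62 and 0.40 and the 5 Ndn probe sets between 0.07 and 0.26, and none passed an adjusted p of 0.05.

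Meg3 and Rian were set beside a measure of RNA integrity. This measure is the log2 difference between control probe sets at the 3′ and the 5′ end of Gapdh, which is larger where transcripts are shortened. It was 4.71, 3.67 and 3.98 on the TAC arrays and 5.15, 3.08 and 2.88 on the sham arrays (exact two-sided permutation p = 0.6, where 0.1 is the smallest possible). TAC 1 and sham 1, the arrays with the largest values of their groups, were also the highest arrays of their groups in 9 of 11 Meg3 and 3 of 4 Rian probe sets. Among all tested probe sets this held for 19.9%, while in 44.1% those arrays were the lowest of their groups.

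Taken as the median over the Meg3 probe sets of the log2 value minus the probe set's own mean, the arrays stood at 0.89, -1.16 and 0.21 after TAC and 0.65, -0.56 and -0.29 after sham. For Rian this median was 0.59, -1.78 and -0.90 after TAC and 2.00, 0.11 and 0.29 after sham. Necdin (Ndn) ran the other way, at -0.49, 0.53 and 0.27 after TAC and -0.49, 0.19 and 0.02 after sham. Over all 6 arrays the order did not follow the Gapdh measure. TAC 2 was the lowest array for both Meg3 and Rian, although sham 2 and sham 3 had smaller Gapdh values. An association over the 6 arrays was not tested. A fit with the Gapdh measure as a covariate was added after the data were seen. The Rian differences in it lay at -2.34, -1.71, -1.63 and -1.11, with limma adjusted p-values from 0.0759 to 0.275. In that fit 3843 of all 18188 tested probe sets had an unadjusted p under 0.05, against 1263 without the covariate. After adjustment 0 passed 0.05.

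**Figure D3:**
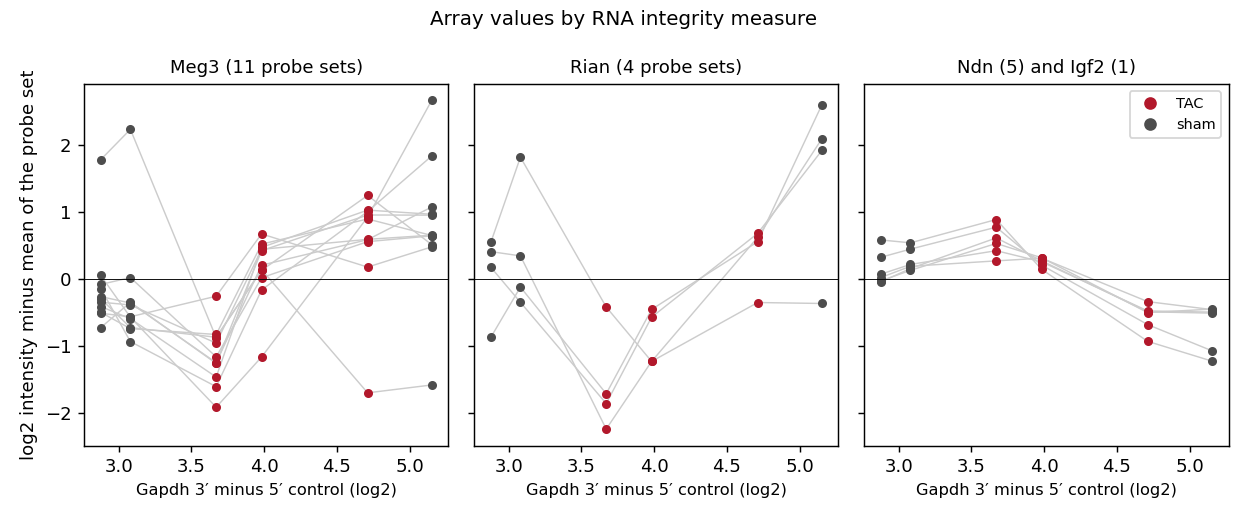
Log2 intensity minus the mean of the probe set (vertical axis) against the Gapdh 3′ minus 5′ control difference of the array (horizontal axis, log2), with 1 grey line per probe set and TAC and sham arrays as points. TAC 1 and sham 1, at 4.71 and 5.15 on the horizontal axis, are the highest arrays of their groups in 9 of 11 Meg3 and 3 of 4 Rian probe sets and the lowest in all 5 tested Ndn probe sets and in Igf2.

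Peg3 held the smallest p-value of the list, and its probe sets disagreed. It is a paternally expressed gene for a large zinc finger protein with roles in maternal behaviour and p53-linked cell death. Probe set 1417355_at measured 7.31, 7.76 and 6.77 after TAC and 8.95, 8.95 and 8.65 after sham. All TAC arrays lay below all sham arrays, by a gap of 0.89. The means were 7.28 ± 0.49 after TAC and 8.85 ± 0.17 after sham, a 2.96-fold lower value (difference -1.57 ± 0.31 SE, unadjusted p = 0.00233, limma adjusted p = 0.417).

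Another Peg3 probe set, 1417356_at, was below the filter, with 3.63, 3.65 and 3.60 after TAC and 3.56, 5.50 and 4.89 after sham. No TAC array and 2 of 3 sham arrays reached log2 4, so its difference is not given. Probe set 1433924_at showed no such separation, with 11.88, 12.31 and 12.00 after TAC and 11.72, 12.36 and 12.16 after sham. The TAC range lay within the sham range, and the difference was -0.02 ± 0.27 SE (limma adjusted p = 0.998), with a positive sign without TAC 1, TAC 3, sham 2 or sham 3 (0.08, 0.02, 0.12 and 0.03). The remaining 2 Peg3 probe sets stayed under log2 2.4 on every array.

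Igf2 encodes a fetal growth factor that signals through the type 1 receptor Igf1r and is cleared by the type 2 receptor Igf2r. Probe set 1448152_at measured 6.61, 8.06 and 7.49 after TAC and 6.22, 7.73 and 7.61 after sham. TAC 1 and sham 1 were the low arrays, and the groups overlapped. The difference was 0.20 ± 0.56 SE (limma adjusted p = 0.991), and it was -0.14 without TAC 2 and -0.28 without sham 1. The other Igf2 probe set, 1415931_at, lay between 3.26 and 3.92 on all arrays, under the filter.

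Cdkn1c, the gene of the cyclin-dependent kinase inhibitor p57, lay between 2.71 and 2.83 on all 6 arrays. Its only probe set was thus never above the filter in either group, and no difference was tested. The arrays give no measure of whether a transcript was absent, since the number of arrays and the probe's own response limit what they detect.

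Ndn encodes necdin, a member of the MAGE protein family that holds back cell division in neurons. Of its 8 probe sets 5 were tested, and 3 lay between 1.66 and 2.15 on every array. Probe set 1455792_x_at measured 13.96, 14.99 and 14.77 after TAC and 14.01, 14.59 and 14.43 after sham. The groups overlapped, with TAC 1 and sham 1 low. Its difference was 0.23 ± 0.35 SE (limma adjusted p = 0.982). The suffix x of 1455792_x_at, 1435383_x_at and 1437853_x_at marks probes that may also bind related sequences. All 5 tested probe sets were slightly higher after TAC on average, from 0.07 to 0.26, none with separated groups, and the lowest of these was -0.04 after cyclic loess and -0.53 without sham 1.

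Nnat encodes neuronatin, a small membrane proteolipid of neurons and endocrine cells. Its probe set measured 4.44, 4.40 and 4.42 after TAC and 4.65, 5.75 and 5.41 after sham. The TAC arrays lay below the sham arrays by a gap of 0.22, and sham 1 was close to them. The difference was -0.85 ± 0.33 SE (unadjusted p = 0.0404, limma adjusted p = 0.696). The TAC values lay close to the filter at log2 4, so the size of this difference is unreliable.

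Plagl1 encodes a zinc finger transcription factor, also called Zac1, that is known to regulate other imprinted genes. Probe set 1426208_x_at measured 9.65, 10.38 and 9.63 after TAC and 9.01, 9.21 and 9.35 after sham. The TAC arrays lay above the sham arrays by a gap of 0.29, with TAC 2 furthest from them. The difference was 0.70 ± 0.29 SE, 1.62-fold higher (limma adjusted p = 0.725), and it was 0.45 without TAC 2. The other 2 Plagl1 probe sets, 1438588_at and 1450533_a_at, lay between 2.31 and 3.39 and did not reach log2 4 on any array. The suffix x of 1426208_x_at marks probes that may also bind related sequences, so its values may not come from Plagl1 alone.

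A wider list of 68 other imprinted genes was read beside these, without a measure of whether each is imprinted in this tissue. Of its members 37 were tested, 18 higher and 19 lower after TAC, where 58.7% of all tested genes were higher. Their median difference was -0.09, and 0 passed the threshold. Its groups did not overlap at 3 of 37 genes, or 8.11%, against 13% of all tested probe sets. Leaving out TAC 1 gave a median of 0.10 and leaving out sham 2 one of 0.02. It also holds Th and Ddc, which are chromaffin cell markers, and Dcn, a gene of fibroblasts.

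Ube3a, a ubiquitin ligase gene that neurons express from the maternal copy, measured 9.58, 9.68 and 9.27 after TAC and 10.38, 10.30 and 10.33 after sham. All TAC arrays were lower, with a difference of -0.83 ± 0.22 SE (limma adjusted p = 0.508), and its other 5 tested probe sets differed by -0.74, -0.18, 0.29, 0.30 and 0.82. Rasgrf1, a paternally expressed exchange factor for Ras, measured 9.04, 8.56 and 8.72 after TAC and 7.16, 7.00 and 8.15 after sham. All TAC arrays were higher, by 1.34 ± 0.37 SE (limma adjusted p = 0.520), and its other probe sets gave 0.34 and 0.25. Ppp1r9a, which encodes the actin-binding protein neurabin, was higher by 0.38 ± 0.21 SE (limma adjusted p = 0.839), with 0.56 and 0.59 from its other probe sets.

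**Figure D4:**
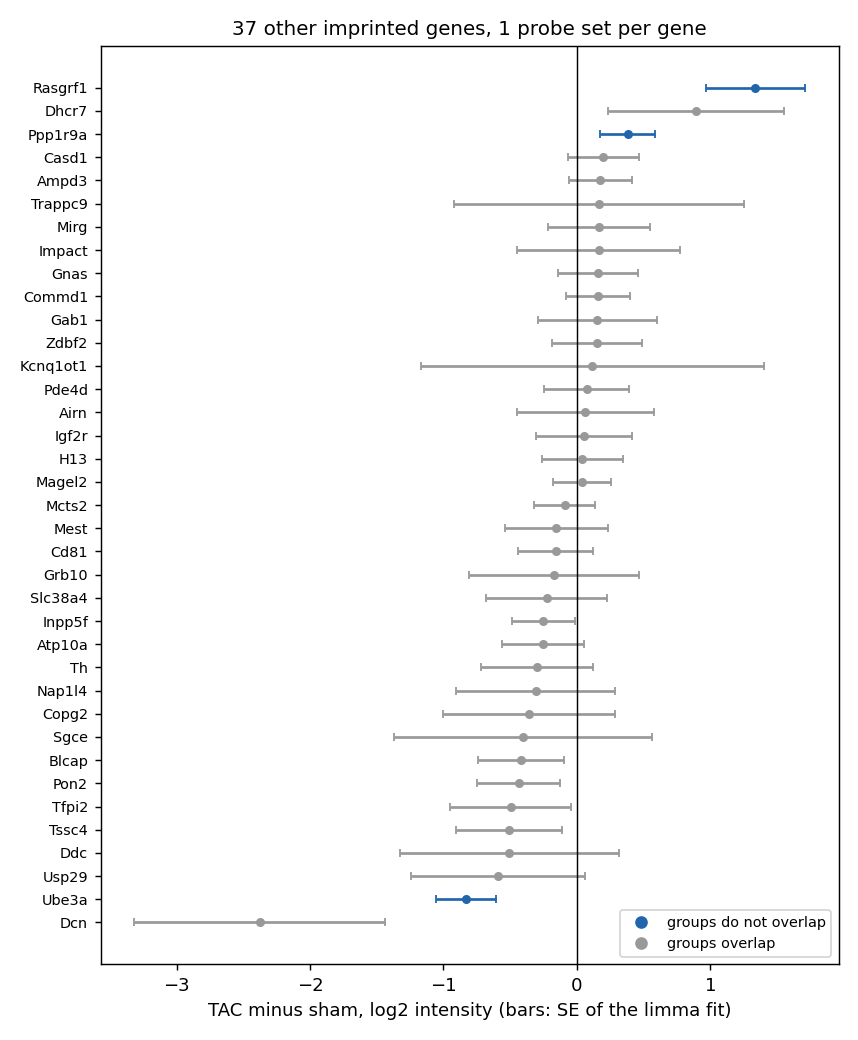
Difference of TAC minus sham in log2 intensity (horizontal axis) for 37 other imprinted genes, 1 probe set per gene, with the SE of the limma fit as bars. The groups do not overlap for Rasgrf1 at 1.34, Ppp1r9a at 0.38 and Ube3a at -0.83, and 0 of 37 passed an adjusted p of 0.05.

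Genes related to the imprinted genes or to their products were counted in the same fit, and 0 passed the threshold in any of these lists. The counts of higher genes stand beside a share of 58.7% over all tested genes. In the insulin-like growth factor pathway 5 of 14 tested genes were higher and 9 lower (median -0.11, and -0.0001 without sham 3 or 0.16 without TAC 1 and sham 3). Igf1r, the receptor through which Igf2 acts, measured 7.42, 7.83 and 7.44 after TAC and 8.24, 8.01 and 7.89 after sham. It was lower on all TAC arrays (-0.48 ± 0.24 SE, limma adjusted p = 0.809), and its other probe set also had separated groups (-0.76 ± 0.28 SE, adjusted p = 0.681). Igfbp4, an IGF-binding protein gene, differed by -0.56 ± 0.36 SE (limma adjusted p = 0.902), and its other probe set by -0.80.

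In the Delta/Notch pathway, to which Dlk1 is related, 9 of 17 were higher and 8 lower (median 0.09, and -0.01 without TAC 2 or -0.03 without sham 1). The receptor gene Notch3 measured 4.01, 4.61 and 5.25 after TAC and 3.74, 3.21 and 3.20 after sham. All its sham values were under the filter, so the size of its difference of 1.24 is unreliable (limma adjusted p = 0.560). Notch3 is also a member of the smooth muscle and pericyte marker list used below. Rfng, a fringe glycosyltransferase gene that modifies Notch, measured 5.83, 5.33 and 5.66 after TAC and 5.13, 3.62 and 4.35 after sham. It was higher on all TAC arrays, by 1.24 ± 0.42 SE (limma adjusted p = 0.618). Dlk2, the closest relative of Dlk1, stayed below the filter.

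Among cyclin-dependent kinase inhibitors, to which Cdkn1c belongs, G1 cyclins and related genes, 11 of 17 were higher and 6 lower. Their median was 0.20, and it was 0.0016 without sham 1 and -0.10 with array weights. E2f3, a transcription factor gene of the cell cycle, differed by 0.71 ± 0.32 SE and Cdkn2d, another kinase inhibitor gene, by -1.18 ± 0.64 SE, with limma adjusted p-values of 0.764 and 0.833. The other E2f3 probe set differed by -0.23. In the MAGE family of Ndn 1 of 6 was higher and 5 lower (median -0.53, and -0.07 without TAC 1), with Magee1 at -0.55 and Nsmce3 at -0.78 and overlapping groups. Of 4 tested PLAG family and Peg3 partner genes 2 were higher and 2 lower (median 0.04, and -0.0028 after cyclic loess, -0.18 without TAC 2 or -0.09 without sham 1). Siah1a, a ubiquitin ligase gene, differed by 0.34 with overlapping groups and Traf2, an adaptor of cytokine receptors, by -0.18 without overlap (limma adjusted p = 0.980 for both). The other Siah1a probe set differed by 0.95 ± 0.38 SE, with all TAC arrays above all sham arrays (limma adjusted p = 0.708).

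Genes that set and keep imprints showed 13 of 23 higher and 10 lower (median 0.04), and the median was -0.07 after cyclic loess, -0.06 without TAC 2 and -0.26 without sham 1. Dnmt1, the maintenance DNA methyltransferase gene, measured 9.30, 8.57 and 8.73 after TAC and 7.34, 7.78 and 7.82 after sham. All TAC arrays were higher, by 1.22 ± 0.30 SE (limma adjusted p = 0.465), and its other probe sets gave 1.77 and -0.24. Dnmt3a, a methyltransferase gene that sets new methylation, differed by 0.86 ± 0.24 SE (limma adjusted p = 0.520) and its other probe set by -0.37. Groups did not overlap at 6 of 23 genes of this list, or 26.1%, against 13% of all tested probe sets. The list was chosen with earlier results of these arrays known, and nothing is read from that share.

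The genes whose pattern over the 6 arrays was nearest to a member were found by the root mean square difference of log2 values centred on their means, among 10173 genes. For Dlk1 1442724_at they were Cwf19l1 (0.10) and Alg2 (0.11), for Igf2 they were Msantd4 (0.04) and Dmac2l (0.05), and for Peg3 1433924_at Pcnp (0.05) and Impa1 (0.05). The member's own root mean square deviation was 0.43 for Dlk1, 0.65 for Igf2 and 0.23 for Peg3. With so many genes and 6 arrays, near patterns occur readily, and they are given as a description.

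As a check of the tissue, all 13 chromaffin cell markers with a probe set of their own were tested, with a mean log2 value per array between 12.02 and 12.77. The median of tested probe sets lay between 6.31 and 7.01 across arrays. Markers of other cells were present as well. The fibroblast and capsule list was lower after TAC in 6 of 7 members (median -1.11), with array means of 6.17 to 7.17 after TAC and 6.66 to 7.99 after sham, and Fbln1, Mfap5, Gli1 and Rspo3 below the filter. The smooth muscle and pericyte list had 3 of 5 higher, the sustentacular and Schwann list 5 of 6, the macrophage list 3 of 6, the endothelial list 2 of 5 and the cortex list 3 of 8, with Cyp11b2, Mc2r and Nr5a1 of the cortex list below the filter. The part of these cells in the values of the imprinted genes was not tested.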

How the data were processed

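The values the authors deposited are linear intensities of Affymetrix 3′ expression arrays, 1 for each probe set of an array. The submitters' processing notes name GCRMA, whose settings were not given in the sources used here. Per the labels' protocols, there were 2 cycles of amplification that started at the 3′ end of the RNA. The log2 of the deposited intensities was taken without further scaling, and 64 array controls were left out of the 45101 probe sets. The 18188 probe sets that reached log2 4 on 3 or more of the 6 arrays were tested with limma (version 3.58.1, R version 4.3.3) through lmFit and eBayes (two-sided, without covariates, 4 residual degrees of freedom) and Benjamini-Hochberg adjustment over all of them. In lists, each gene was read from its tested probe set of highest mean.

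The genes of most like pattern were taken by the smallest root mean square difference, 2 each for Dlk1, Igf2 and Peg3. Gene symbols came from GEO's platform annotation, with 1 symbol for 34945 probe sets, several for 932 and none for 9160, and the RefSeq gene table of GRCm38.p6 updated 0 of them. All probe sets of the 10 genes are reported. Of the lists of related genes, the 2 genes with the smallest p were named, and of the other imprinted genes those without overlap between groups, at most 12. The 10 genes and the lists were chosen with earlier results of these data known. Alternatives were other scalings, filters and a floor at log2 4, array weights, a replicate block and leaving out arrays. The fit was also run on simulated data with known changes. Their noise was drawn independently for each probe set, so deviations shared by the probe sets of an array were not covered. Precision is limited by 3 arrays per group, and the median SE of a difference was 0.39.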

Additional observations from a re-analysis of the deposited data

How the results depend on the processing

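Over 18 alternatives, 13 of the 27 tested probe sets of the imprinted genes kept their direction in each in which they were tested, among them all 4 of Rian, Peg3 1417355_at (-1.94 to -1.31), Dlk1 1442724_at (0.49 to 0.98), Plagl1 (0.40 to 0.90) and Nnat (-1.16 to -0.61). Array weights gave an adjusted p under 0.05 for 6698 of the 18188 tested probe sets and for 9 of the 27 of the imprinted genes. In the other alternatives 0 passed. The weights ranged from 0.143 for sham 1 to 6.11 for TAC 3. Probe sets at an unadjusted p under 0.05 numbered 1263, and 8749 with array weights, 2110 without a filter, 3005 with the replicate block, 640 without TAC 1 and sham 3, 3843 with the Gapdh covariate added after the data were seen, and 641 to 2429 when single arrays were left out (695 without TAC 3, 2429 without sham 1, 641 without sham 2, 773 without sham 3). The cause of these changes was not tested.

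The labels state no pairing of same-numbered arrays. Their deviations from the group means correlated at 0.76, 0.78 and -0.22 for the numbers 1, 2 and 3. TAC 2 also correlated with sham 3, an array of another number, at 0.71. With 3 arrays per group these values cannot tell whether arrays were paired. With the replicate block 0 probe sets passed after adjustment, and the median of the imprinted genes stayed at 0.21.

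Signs turned for 14 of the 27 probe sets, whose differences lay between -0.51 and 0.39. Ndn 1415923_at was -0.045 after cyclic loess, -0.40 with array weights and -0.53 to 0.55 when arrays were left out. Meg3 1426758_s_at was -0.0036 after median centring, -0.033 after quantile normalization, -0.089 after cyclic loess, -0.68 without TAC 1 and sham 3, -0.34 with the Gapdh covariate and -0.48 to 0.76 when arrays were left out. Meg3 1436057_at was -0.026, -0.72 and -0.28 after cyclic loess, without TAC 1 and sham 3 and with the covariate, and -0.38 to 0.73 when arrays were left out. Meg3 1452905_at was -0.0033 after quantile normalization, -0.054 after cyclic loess, -0.39 without TAC 1 and sham 3, -0.19 with the covariate and -0.23 to 0.54 when arrays were left out. Without TAC 1 and sham 3, Meg3 1428765_at was -0.26, Meg3 1452183_a_at -0.11 and Peg3 1433924_at 0.12, the last also 0.094 with the covariate. With array weights, Meg3 1429256_at was 0.0042, Meg3 1429257_at 0.29, Meg3 1452906_at 0.43, Igf2 1448152_at -0.16 and Dlk1 1449939_s_at -0.026. Leaving out arrays gave -0.20 to 0.85 for Meg3 1428765_at, -0.76 to 0.093 for 1429256_at, -1.14 to 0.28 for 1429257_at and -0.67 to 0.24 for 1452906_at. It gave -0.20 to 0.12 for Peg3 1433924_at, -0.025 to 0.37 for Ndn 1435382_at, -0.077 to 0.41 for Ndn 1435383_x_at, -0.28 to 0.59 for Igf2 and -0.18 to 0.61 for Dlk1 1449939_s_at.

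List medians moved by more than the spread between arrays in few settings. The fibroblast median was -0.13 without a filter and -0.62 without TAC 1 and sham 3. The endothelial median was 0.55 with either stricter filter. The smooth muscle median was 0.0071 without a filter, 0.88 without TAC 1 and sham 3 and 0.19 to 0.75 when arrays were left out. The sustentacular median was 0.085 to 0.57 when arrays were left out, the macrophage median 0.78 and the Delta/Notch median 0.37 without TAC 1 and sham 3, and the median of the imprint maintenance genes -0.33 with array weights. The cortex median of -0.58 stayed within its spread between arrays but had no stable sign. It was 0.26 without TAC 3, 0.93 without sham 3 and -1.73 with array weights.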

Other observations

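Further noncoding RNAs were looked at after the pattern of Meg3 and Rian was seen, to describe their order over the arrays. TAC 1 and sham 1, which had the largest Gapdh 3′ minus 5′ values of their groups, were the highest of their groups in 2 of 3 tested probe sets of Kcnq1ot1, 2 of 2 of Airn and the only tested one of Mirg, which are imprinted noncoding RNAs. The same held for 6 of 6 of Malat1 and 1 of 1 of Neat1, nuclear noncoding RNAs that are not imprinted, against 19.9% of all tested probe sets. Kcnq1ot1 1442029_at measured 9.68, 6.48 and 8.42 after TAC and 10.60, 6.68 and 6.95 after sham. Neat1 1428083_at measured 8.55, 6.80 and 7.03 after TAC and 9.39, 8.12 and 7.94 after sham. The TAC and sham groups overlapped in every tested probe set of these 5 genes, and the lowest limma adjusted p among them was 0.883.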
